A study of Mus musculus with 2 samples.

Results

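The genes described here mark pericytes and their contractile machinery: the potassium channel subunits Kcnj8 and Abcc9, the G protein regulator Rgs5, the contractile genes Acta2, Tagln, Cnn1 and Myh11, and the surface proteins Pdgfrb, Mcam and Cspg4. They were chosen by name, and every probe set (a group of short oligonucleotides that reads one transcript) annotated to exactly 1 of these symbols was used. That gave 20 probe sets for the 10 genes, of 34958 probe sets for 18194 genes on the array. The samples were osteoblastic cells of tibia and femur from C57Bl/6 mouse embryos at stage E18.5, prepared from Ebf2-/- and from Ebf2+/- animals, with 3 mice given for each genotype and no statement of whether their RNA was pooled. Both genotypes carry the Ebf2-lacZ marker, so the Ebf2+/- cells also lack 1 normal copy of Ebf2, and wild-type cells were not analysed here. Cells positive for the marker were sorted by flow cytometry after loading with FDG, a substrate that fluoresces once the lacZ product cleaves it, and were then expanded in culture, unpassaged, in alpha MEM containing 10% serum. Ebf2 belongs to the early B cell factor family of transcription factors. There was 1 Affymetrix mouse whole-genome array for each genotype, so no value has a replicate check, no p-value was computed, and every ratio describes these 2 arrays.

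Pericytes wrap capillaries and small vessels and share part of the smooth muscle program. Their ATP-sensitive potassium channel is built from the pore subunit Kir6.1, encoded by Kcnj8, and the sulfonylurea receptor SUR2, encoded by Abcc9, and it ties membrane potential to the energy state of the cell. Contraction uses smooth muscle actin and myosin under the control of calcium, myosin light chain kinase and actin-binding proteins such as calponin and transgelin. In bone and marrow, perivascular cells that carry Pdgfrb, Mcam or Cspg4 overlap with stromal progenitors, and several contractile genes are also switched on in cultured mesenchymal cells.

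Both channel subunits were above background in the Ebf2-/- cells, and neither was in the Ebf2+/- cells. Abcc9 was at least 6.53-fold higher in Ebf2-/- by its brightest probe set and at least 3.32-fold higher by the next. Kcnj8 was at least 3.32-fold higher in Ebf2-/-, and the surface protein Mcam was at least 2.17-fold lower. The 3 contractile genes above background differed by less than 1.5-fold, and so did Pdgfrb and Cspg4 by their brighter probe sets. Of the 9 members measured (above background on at least 1 array), 2 were higher by 2-fold or more, 1 was lower by 2-fold or more and 6 differed by less. Over all 11785 measured genes, 6.30% passed 2-fold upward and 3.46% passed 2-fold downward. The median log2 ratio, Ebf2-/- over Ebf2+/-, was 0.10 over the 9 members and 0.03 over all measured genes. Counted over probe sets, 3 of 14 measured passed 2-fold upward and 1 downward, against 6.58% and 3.61% of the 20401 measured probe sets on the array. A member could enter the count by being above background on 1 array alone, as 4 of the 9 did, and those 4 include all 3 that passed 2-fold.

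The upstream sequences of the channel pair and of Mcam, the 3 genes past 2-fold, are shown because these are the members whose signals separated the genotypes most. Each is the 250 bases before the annotated transcription start, 5′ to 3′ on the strand of the gene, from RefSeq (GRCm38.p6). Kcnj8 lies at chr6:142571615-142571864 (minus strand), Abcc9 at chr6:142702275-142702524 (minus strand) and Mcam at chr9:44134408-44134657 (plus strand). Capitals mark matches to GGGCGG, the GC box, on either strand, and to CCCNNGGG, the core of the palindrome that EBF proteins bind, which reads the same on both strands.
Kcnj8: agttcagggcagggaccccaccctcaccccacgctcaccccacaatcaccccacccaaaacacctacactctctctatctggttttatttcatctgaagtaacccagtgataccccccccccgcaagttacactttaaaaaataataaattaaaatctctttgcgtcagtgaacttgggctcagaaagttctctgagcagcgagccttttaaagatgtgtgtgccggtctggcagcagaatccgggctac
Abcc9: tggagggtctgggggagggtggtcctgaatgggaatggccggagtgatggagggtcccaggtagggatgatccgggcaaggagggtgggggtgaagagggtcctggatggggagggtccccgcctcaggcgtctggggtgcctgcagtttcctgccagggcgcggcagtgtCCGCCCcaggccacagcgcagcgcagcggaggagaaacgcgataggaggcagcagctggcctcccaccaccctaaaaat
Mcam: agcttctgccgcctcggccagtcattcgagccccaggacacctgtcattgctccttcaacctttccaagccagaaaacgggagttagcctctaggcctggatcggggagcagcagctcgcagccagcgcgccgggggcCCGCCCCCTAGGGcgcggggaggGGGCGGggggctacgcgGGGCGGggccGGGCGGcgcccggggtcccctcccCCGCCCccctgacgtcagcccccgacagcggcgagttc

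Kcnj8 and Abcc9 are next to each other on chromosome 6 with 0 annotated protein-coding genes between them. Their upstream windows differ in composition, with 49.2% G and C for Kcnj8, 66.8% for Abcc9 and 73.6% for Mcam. The EBF core was found 1 time, in Mcam, starting 107 bases before the start and sharing 1 base with a GC box. It occurs in 11.8% of the 32851 upstream windows of this length. Of the 7 members with a window, 3 held a GC box (5 in Mcam, 2 in Cspg4 and 1 in Abcc9), a motif present in 32.7% of all windows. The CArG box, the binding motif of serum response factor, and the TATA box, TATAAA on either strand, were found in 0 of the 7. They occur in 1.47% and 12.4% of all windows. The CArG box was searched only in its strict form, CC and GG with 6 bases of A or T between them. A site with a G or C among those bases would be missed, so a missing match does not show that no such site is present. Rgs5, Acta2 and Cnn1 were the other members with a window. A match is a description of the sequence, and binding was not measured.

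Signals are the authors' MAS5 intensities, in arbitrary units on a linear scale. The background floor of each array was the 95th percentile of 86 probe sets of chemosensory receptors (olfactory, vomeronasal and taste), genes without a known role in bone cells: 23.8 on the Ebf2-/- array and 17.8 on the Ebf2+/- array. Values under the floor were set to it before a ratio was taken, so a fold against an array below its floor is a lower bound, written "at least". Different probe sets of one gene had log2 ratios that varied with a pooled SD of 0.44 (1.36-fold; 4119 genes with several such probe sets), which holds none of the variation between mice or between cultures. Signals of different probe sets are not compared with each other, since each binds with its own strength.

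Kcnj8, with 1 probe set (1418142_at), read 59.3 on the Ebf2-/- array, against 2.98 on the Ebf2+/- array. Only the Ebf2-/- value was above its floor. The log2 ratio of Kcnj8 was 1.73 as a bound, and it stayed past 2-fold with a pseudocount of 50 added to both signals in place of the floor, at 1.04.

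Abcc9, the regulatory subunit that binds ADP and channel-opening drugs, was read by 3 probe sets. The brightest of them (1435752_s_at) had 116 in Ebf2-/- and 6.46 in Ebf2+/- cells, at least 6.53-fold higher. The next (1435751_at) had 59.1 in Ebf2-/- and 2.31 in Ebf2+/- cells, at least 3.32-fold higher. The dimmest (1420408_a_at) had 27.9 in Ebf2-/- and 3.55 in Ebf2+/- cells, at least 1.57-fold higher. All 3 were above the floor in Ebf2-/- alone, and all 3 went the same way. The sizes of these bounds follow how bright each probe set was, since the lower signal is set to the same floor each time. In bulk RNA, a different number of cells that express a gene and a different amount of RNA per cell cannot be told apart.

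**Figure D1:**
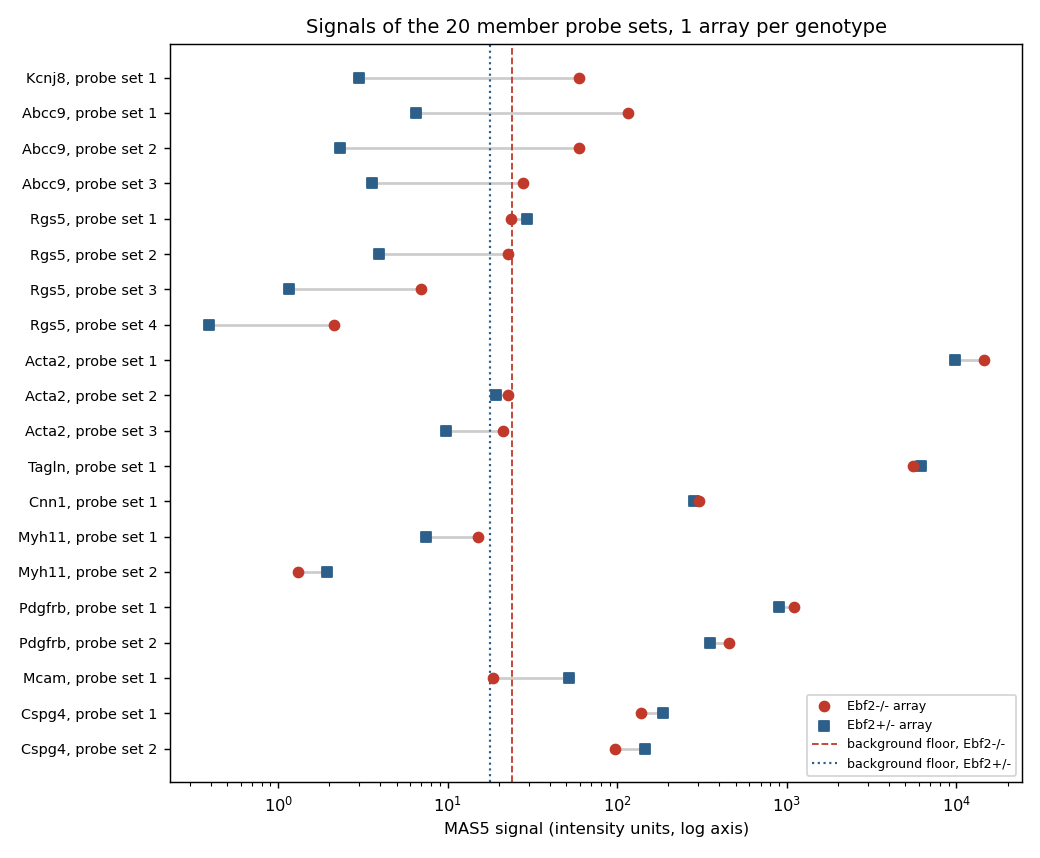
MAS5 signal (log axis) of each of the 20 member probe sets on the Ebf2-/- array (red circles) and the Ebf2+/- array (blue squares), 1 array each, numbered within a gene by brightness, with the background floor of each array as a vertical line. Kcnj8 and the 3 probe sets of Abcc9 are right of the floor in Ebf2-/- and left of it in Ebf2+/-, Mcam shows the opposite, and Myh11 is left of both floors.

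Rgs5 shortens signalling through G proteins in pericytes and is a common marker of them. Its brightest probe set (1417466_at) read 23.7 in Ebf2-/- cells, just under the floor of 23.8, and 29.4 in Ebf2+/- cells. This is at least 1.24-fold lower in Ebf2-/-, a difference within the spread between probe sets of one gene. The other 3 probe sets of Rgs5 were under the floor on both arrays, with 22.6, 6.99 and 2.12 in Ebf2-/- and 3.91, 1.16 and 0.391 in Ebf2+/- cells, and no fold is given for them. Rgs5 was thus near or under background on both arrays, and its probe sets differ in which array gave the higher reading.

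Among the contractile genes, Acta2 encodes smooth muscle alpha-actin. Its bright probe set (1416454_s_at) had 14479 in Ebf2-/- and 9803 in Ebf2+/- cells, 1.48-fold higher (log2 ratio 0.56). The suffix _s_at marks a probe set that can read more than 1 transcript, and the actin genes are close in sequence, so this signal may include other actin transcripts. The 2 other probe sets of Acta2 had 22.7 and 21.1 in Ebf2-/- and 19.4 and 9.70 in Ebf2+/- cells, of which 1 value exceeded its floor (19.4), and no fold is given for either. The relatives Actg2, gamma smooth muscle actin, and Acta1, skeletal alpha-actin, had 702 and 105 in Ebf2-/-, against 791 and 45.0 in Ebf2+/- cells.

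Tagln, which encodes transgelin (SM22), an actin-binding protein, had 5566 in Ebf2-/- and 6171 in Ebf2+/- cells, a log2 ratio of -0.15 (1423505_at). Cnn1, calponin 1, which holds back the actin-activated myosin ATPase, had 302 in Ebf2-/- and 282 in Ebf2+/- cells, a log2 ratio of 0.10 (1417917_at). Both were far above background on both arrays, and both ratios are smaller than the 0.44 between probe sets of one gene. The sign for Cnn1 depends on scaling, at -0.08 with the arrays scaled to spike-in control transcripts. Myh11, the smooth muscle myosin heavy chain and the most specific of these contractile genes for mature smooth muscle, was under the floor on both arrays by both of its probe sets. They read 15.2 and 1.31 in Ebf2-/-, against 7.44 and 1.93 in Ebf2+/- cells, and no fold is given.

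The surface proteins split. Pdgfrb, the receptor through which platelet-derived growth factor B recruits pericytes, had 1100.3 in Ebf2-/- and 900.1 in Ebf2+/- cells by its brighter probe set (1436970_a_at), a log2 ratio of 0.29. The other probe set (1417148_at) had 459 in Ebf2-/- and 351 in Ebf2+/- cells, a log2 ratio of 0.38. Both readings of Pdgfrb were slightly higher in Ebf2-/-, by less than the spread between probe sets. Cspg4, the NG2 proteoglycan of pericytes, had 139 in Ebf2-/- and 185 in Ebf2+/- cells by 1423341_at, a log2 ratio of -0.42. By 1450944_at it had 96.6 in Ebf2-/- and 147 in Ebf2+/- cells, a log2 ratio of -0.60. Both readings of Cspg4 were lower in Ebf2-/-, neither by 2-fold.

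Mcam encodes CD146, an adhesion molecule of pericytes, endothelial cells and marrow stromal progenitors. Its only probe set (1416357_a_at) read 18.4 in Ebf2-/- cells, under the floor, and 51.8 in Ebf2+/- cells, at least 2.17-fold lower in Ebf2-/-. The value of Mcam is close to the 2-fold size: its log2 ratio of -1.12 became -0.68 with the 99th percentile of the receptor probe sets as floor, and -0.57 with a pseudocount of 50.

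**Figure D2:**
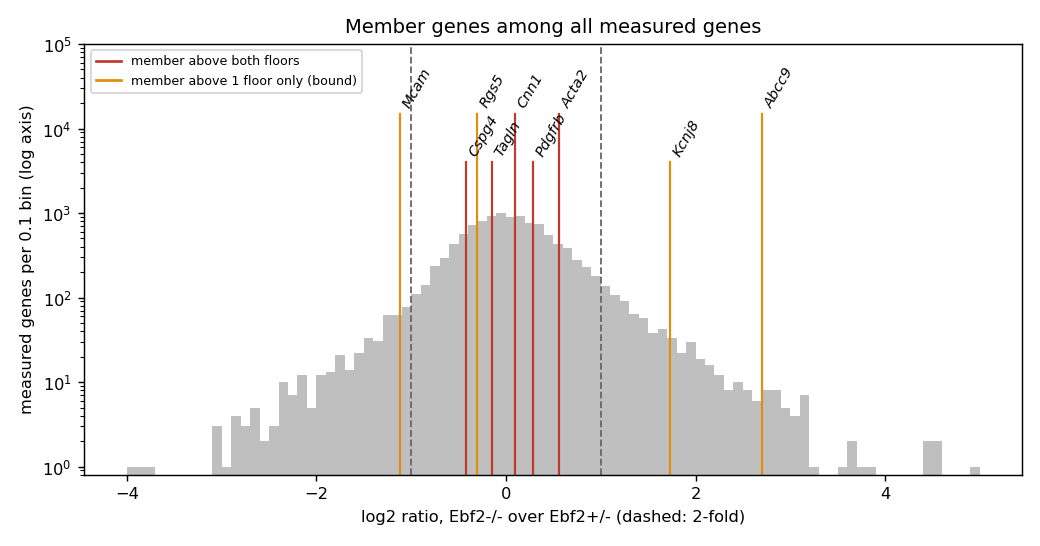
Number of measured genes (log axis) by log2 ratio of Ebf2-/- over Ebf2+/-, with the 9 measured members as vertical lines, red where the gene was above the floor on both arrays and orange where it was above 1 floor only, so that the value is a bound. The 5 members above both floors sit between -0.42 and 0.56, Kcnj8 (1.73) and Abcc9 (2.71) are past the upper dashed 2-fold line and Mcam (-1.12) is past the lower one.

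Set side by side, the members above both floors had log2 ratios from -0.42 (Cspg4) to 0.56 (Acta2), with 3 higher and 2 lower in Ebf2-/- and a median of 0.10. The same median over all 10057 genes above both floors was 0.00075.

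Related genes were read from 6 lists, of which the 3 measured genes with the largest ratio either way are named. Over all measured genes 6.30% passed 2-fold upward and 3.46% downward, so most genes on the array differed by less. Further potassium and calcium channel genes of smooth muscle showed no 2-fold difference: of 18 genes 9 were measured and 0 passed 2-fold in either direction (median log2 ratio 0.11, but -0.066 with spike-in scaling). Kcnj11, which encodes Kir6.2, the pore subunit of the other ATP-sensitive channel, had 351 in Ebf2-/- and 230.5 in Ebf2+/- cells (log2 ratio 0.61). Cacna1c, the pore of the L-type calcium channel, had 47.7 and Stim1, the calcium sensor of the endoplasmic reticulum, 38.0 in Ebf2-/-, against 36.6 and 63.3 in Ebf2+/- cells. Abcc8, the partner subunit SUR1, is named after its values were seen and had 25.5 in Ebf2-/- and 27.0 in Ebf2+/- cells, close to the floor on both.

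Of the other 12 RGS genes 9 were measured, with 0 passing 2-fold upward and 2 downward in Ebf2-/- (median log2 ratio -0.32). The shares over all measured genes were 6.30% upward and 3.46% downward. Rgs1, a regulator found mainly in leukocytes, had 25.9 in Ebf2-/-, just above the floor, and 219 in Ebf2+/- cells, 8.47-fold lower. Rgs4 had 42.8 in Ebf2-/- and 86.5 in Ebf2+/- cells, 2.02-fold lower, while the average of its probe sets gave -0.27 on the log2 scale and a pseudocount of 50 gave -0.56. Rgs12 had 78.3 in Ebf2-/- and 143 in Ebf2+/- cells (log2 ratio -0.87, but -1.05 with spike-in scaling).

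Most genes of the wider contractile apparatus differed by less than 2-fold, as most measured genes did (6.30% passed upward and 3.46% downward). The kinase that activates myosin had the largest ratio of the list. Of 28 contractile and thin filament genes 25 were measured, 3 passed 2-fold upward and 0 downward, and the median log2 ratio was 0.26 (from 0.09 to 0.29 over the alternatives). Mylk, myosin light chain kinase, had 842 in Ebf2-/- and 126 in Ebf2+/- cells, 6.70-fold higher. Its other probe sets had 310.2 and 58.5 in Ebf2-/-, against 31.9 and 4.58 in Ebf2+/- cells, 9.71-fold and at least 3.28-fold higher, so all 3 went the same way. Ppp1r14a, which encodes CPI-17, an inhibitor of myosin phosphatase, had 50.3 in Ebf2-/- and 1.70 in Ebf2+/- cells, at least 2.82-fold higher. Lmod1, leiomodin 1, an actin nucleator of smooth muscle, had 79.7 in Ebf2-/- and 38.9 in Ebf2+/- cells, 2.05-fold higher. With a pseudocount of 50 the log2 ratios of Ppp1r14a and Lmod1 were 0.96 and 0.55, under 2-fold, and Lmod1 was also under 2-fold with quantile (0.97), lowess (0.99) and spike-in scaling (0.86). Of the 3 genes of this list under both floors, Des, the muscle intermediate filament desmin, had 4.08 in Ebf2-/- and 2.44 in Ebf2+/- cells, and Pln, phospholamban, had 4.97 in Ebf2-/- and 7.71 in Ebf2+/- cells.

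Regulators of these genes also showed no 2-fold difference, as was so for most measured genes on the array. Of 12 genes around serum response factor and its coactivator myocardin, 10 were measured and 0 passed 2-fold either way (median log2 ratio 0.12, but -0.057 with spike-in scaling). When probe sets ending in _s_at, _x_at or _a_at were left out, 9 were measured and 1 passed 2-fold upward. Klf4, a repressor of smooth muscle genes, had 789.7 in Ebf2-/- and 543 in Ebf2+/- cells. Mrtfa, an actin-sensing coactivator of serum response factor, had 327 in Ebf2-/- and 251 in Ebf2+/- cells, and Fhl2, a LIM domain cofactor, had 383 in Ebf2-/- and 496 in Ebf2+/- cells. Myocd, which encodes myocardin, was under the floor on both arrays, at 3.42 in Ebf2-/- and 10.3 in Ebf2+/- cells.

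The 6 genes of the platelet-derived growth factor family were all measured. Of these 2 passed 2-fold upward and 0 downward, against 6.30% and 3.46% of all measured genes. The median log2 ratio was 0.11, but -0.068 with spike-in scaling. Pdgfra, the sister receptor of Pdgfrb and a marker of fibroblasts and mesenchymal progenitors, had 860.2 in Ebf2-/- and 158 in Ebf2+/- cells, 5.45-fold higher. Its other probe sets were 2.59-fold and 1.49-fold higher, and the mean log2 ratio over the 3 was 1.47, against 2.45 for the brightest. Pdgfrl, a secreted receptor-like protein, had 836 in Ebf2-/- and 316 in Ebf2+/- cells, 2.65-fold higher. Pdgfb, the ligand of Pdgfrb, had 19.9 in Ebf2-/-, under the floor, and 43.2 in Ebf2+/- cells, at least 1.81-fold lower, and its log2 ratio of -0.86 passed 2-fold with lowess (-1.01) and spike-in scaling (-1.04), and where no floor was set or each array's median served as one (-1.12). The ratio of Pdgfb shrank to -0.42 both with the 99th percentile of the receptor probe sets as floor and with a pseudocount of 50.

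Of 27 other genes used to mark pericytes 17 were measured, and 14 of these had the higher value in Ebf2-/-. By 2-fold or more, 7 were higher and 1 was lower (median log2 ratio 0.90, from 0.60 to 1.01 over the alternatives). Over the alternatives the count of higher genes ranged from 5 to 9, and the shares to set it against are the 6.30% and 3.46% of all measured genes given above. The aminopeptidase Anpep (CD13) had 76.1 in Ebf2-/- and 4.11 in Ebf2+/- cells, at least 4.27-fold higher. The metalloreductase Steap4 had 75.9 in Ebf2-/- and 2.37 in Ebf2+/- cells, at least 4.26-fold higher (log2 ratio 2.09, but 1.26 as a mean over probe sets), and Ndufa4l2, a mitochondrial protein induced by low oxygen, had 65.1 in Ebf2-/- and 4.28 in Ebf2+/- cells, at least 3.65-fold higher. The others at least 2-fold higher, named after their values were seen, were Cd248 (endosialin), Enpep (aminopeptidase A), Notch3 and the Ebf2 relative Ebf1, with Notch3 at 2.01-fold and under 2-fold with quantile, lowess and spike-in scaling and with a pseudocount of 50, as was Enpep with that pseudocount. Foxd1, also named after its values were seen, was the lower one, with 272 in Ebf2-/- and 572 in Ebf2+/- cells (log2 ratio -1.07, but -0.95 with a pseudocount of 50). Of the 9 under both floors, Higd1b, Atp13a5 and Vtn are used as markers of brain and lung pericytes, and Higd1b had 2.78 in Ebf2-/- and 5.74 in Ebf2+/- cells.

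**Figure D3:**
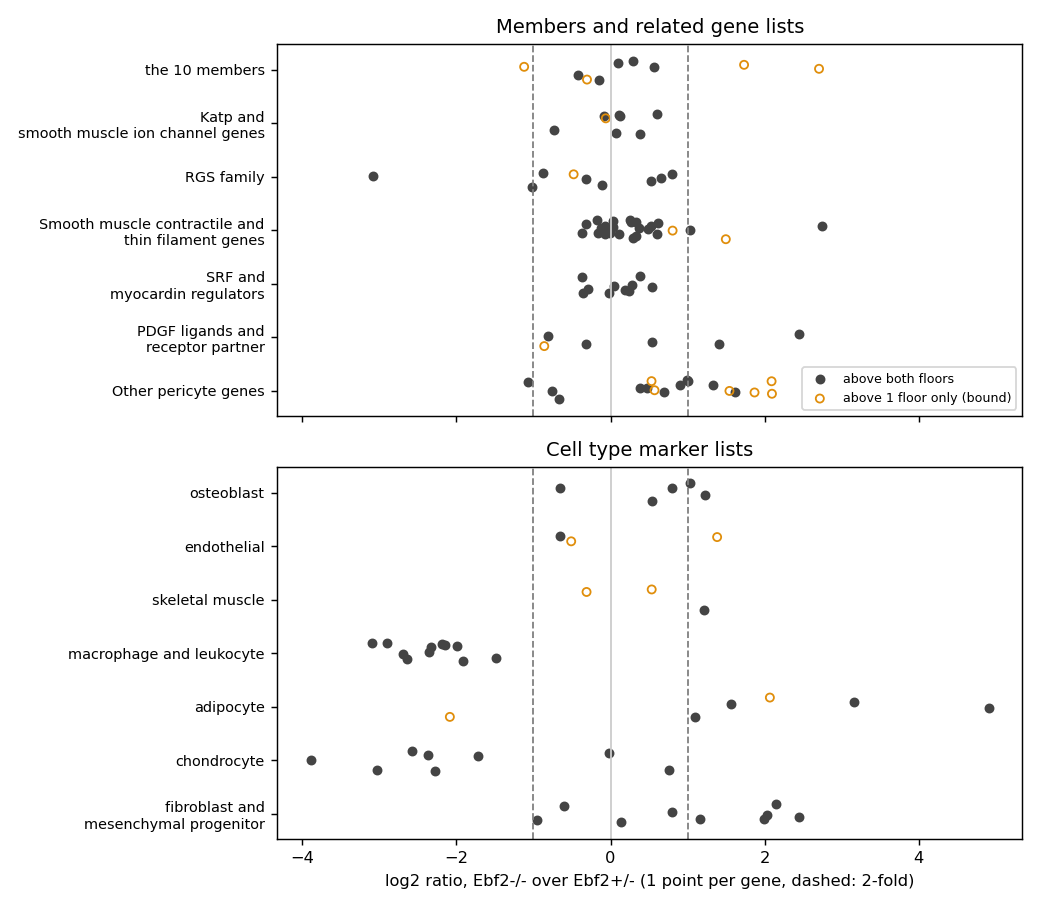
Log2 ratio of Ebf2-/- over Ebf2+/- for each gene for which a fold is given, in the members and 6 related lists (upper panel) and in 7 cell type marker lists (lower panel), with filled points above both floors, open points above 1 floor only and dashed lines at 2-fold. The contractile list centres near its median of 0.26 with Mylk at 2.74, the other pericyte genes have a median of 0.90, and the macrophage and leukocyte genes all lie left of the lower 2-fold line.

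The labelled cell type and other cells that could share the preparation were checked by marker lists, of which the 2 largest ratios are named. Counts past 2-fold can be set against the 6.30% upward and 3.46% downward over all measured genes. Summed signals add all genes of a list with a probe set, also those under the floors. Of 11 osteoblast genes 8 had a probe set of 1 symbol and 5 were measured, with Col1a1 (12784 in Ebf2-/- and 5478 in Ebf2+/-) and Alpl (51.8 in Ebf2-/- and 25.4 in Ebf2+/-) past 2-fold. The other probe set of Col1a1 went the opposite way, with 982 in Ebf2-/- and 1375 in Ebf2+/- cells (log2 ratio -0.49), and the mean over both was 0.37. Alpl was under 2-fold with quantile (0.96), lowess (0.97) and spike-in scaling (0.85) and with a pseudocount of 50 (0.43). Of the 5 measured, 4 were higher in Ebf2-/-. The 1 lower gene, Sp7, named after its values were seen, had 53.3 in Ebf2-/- and 83.7 in Ebf2+/- cells. The list median was 0.80 and the summed signal 45486 in Ebf2-/- and 26253 in Ebf2+/- cells, the direction of Kcnj8 and Abcc9. Ibsp, Dmp1 and Phex, genes of mineralizing osteoblasts and osteocytes, were under the floor on both arrays. Of the pericyte and smooth muscle markers, Myh11, Des and Higd1b were under both floors, while Acta2, Tagln, Cnn1, Pdgfrb and Cspg4 were above them.

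Endothelial cells express Mcam too. Of 12 endothelial genes 3 were measured, and the defining markers Pecam1, Cdh5, Vwf and Tie1 were under both floors. The summed signal of the list was 133 in Ebf2-/- and 134 in Ebf2+/- cells. It includes the 9 genes under both floors, so it does not measure endothelial content. Tek had 46.5 in Ebf2-/- and 3.53 in Ebf2+/- cells, at least 2.61-fold higher, and Egfl7 had 25.8 in Ebf2-/- and 40.5 in Ebf2+/- cells (log2 ratio -0.65). The third, Kdr, a receptor of vascular endothelial growth factor, had 3.32 in Ebf2-/-, under the floor, and 33.9 in Ebf2+/- cells, at least 1.42-fold lower, the direction of Mcam. With a pseudocount of 50 Tek was under 2-fold (0.85). The other measured probe set of Egfl7 had 29.7 in Ebf2-/- and 28.1 in Ebf2+/- cells, and the mean log2 ratio over both was -0.29. Of 10 skeletal muscle genes 3 were measured and 1, Acta1, was at least 2-fold higher (log2 ratio 1.22, but 0.70 with a pseudocount of 50), while Myod1, Myog and Ckm were under both floors. Actn3 had 25.8 in Ebf2-/- and 15.6 in Ebf2+/- cells, and the summed signal of the list was 182 in Ebf2-/- and 106 in Ebf2+/- cells. The third measured muscle gene, Mylpf, named after its values were seen, went the other way. Mylpf had 12.1 in Ebf2-/-, under the floor, and 29.5 in Ebf2+/- cells, at least 1.24-fold lower.

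The remaining marker lists differed between the arrays and are given with their medians and summed signals. Members differed in both directions, so a list or gene that shares the direction of a member is not thereby linked to it. All 11 macrophage and leukocyte genes were lower in Ebf2-/- by 2-fold or more (median log2 ratio -2.33, summed signal 1808 in Ebf2-/- and 7865 in Ebf2+/- cells), with Itgb2 8.56-fold and Ptprc 7.45-fold lower, as the member Mcam and the RGS list gene Rgs1 were lower. As a mean over probe sets 10 of the 11 passed 2-fold, since Laptm5 was then at -0.97, against -2.33 by its brightest probe set. Of 9 chondrocyte genes 8 were measured and 6 passed 2-fold downward (median -2.33, summed signal 3762 in Ebf2-/- and 12537 in Ebf2+/- cells), with Col9a3 14.8-fold and Hapln1 8.19-fold lower. The other probe sets of Hapln1 were 1.93-fold, at least 3.25-fold and at least 1.43-fold lower, and the mean log2 ratio over its probe sets was -1.55, against -3.03 for the brightest. The other 2 measured chondrocyte genes, named after their values were seen, were not lower by 2-fold. Comp was higher, with 395 in Ebf2-/- and 232 in Ebf2+/- cells (log2 ratio 0.77). Sox9 had 209 in Ebf2-/- and 213 in Ebf2+/- cells (log2 ratio -0.024). Of 10 fibroblast and mesenchymal progenitor genes 9 were measured, and 5 passed 2-fold upward and 0 downward (median 1.16, summed signal 46312 in Ebf2-/- and 29554 in Ebf2+/- cells), with Pdgfra given above and Dcn 4.43-fold higher. The 2 lower genes, named after their values were seen, were S100a4 (log2 ratio -0.61) and Nt5e (-0.96). With quantile scaling 5 passed upward and 1 downward, and with spike-in scaling 4 upward and 1 downward. Of 8 adipocyte genes 6 were measured, and 5 passed 2-fold upward and 1, Cd36, downward (log2 ratio -2.09, but -1.16 as a mean over probe sets; list median 1.81, summed signal 2895 in Ebf2-/- and 829 in Ebf2+/- cells), with log2 ratios of 4.91 for Fabp4 and 3.16 for Cebpa, as Kcnj8 and Abcc9 were higher. The Fabp4 value rests on 1 probe set that read 552 in Ebf2-/- and 18.4 in Ebf2+/- cells, just above the floor of 17.8. Its other measured probe set gave a bound of 2.19, and the mean over both was 3.55. The part of these other cell types in the values of the channel pair, Mylk and Mcam was not tested.

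Ebf2 itself did not separate the genotypes on these arrays. Its 3 probe sets had 20.6, 14.4 and 25.1 in Ebf2-/- and 24.9, 13.7 and 14.4 in Ebf2+/- cells, near or under the floors, and where they lie relative to the altered part of the gene is not known here. The ratio of 3' to 5' control probe sets, a sign of RNA integrity, was 2.79 in Ebf2-/- and 1.97 in Ebf2+/- for beta-actin, and 1.60 in Ebf2-/- and 1.30 in Ebf2+/- for Gapdh, and its part in the member values was not tested. The log2 ratio of the 18 spike-in probe sets averaged 0.18 ± 0.15 (SD across those probe sets). Scaling the arrays to them moved the median of genes above both floors to -0.17 and the split of genes past 2-fold to 528 higher and 625 lower, against 742 higher and 408 lower as deposited.

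**Figure D4:**
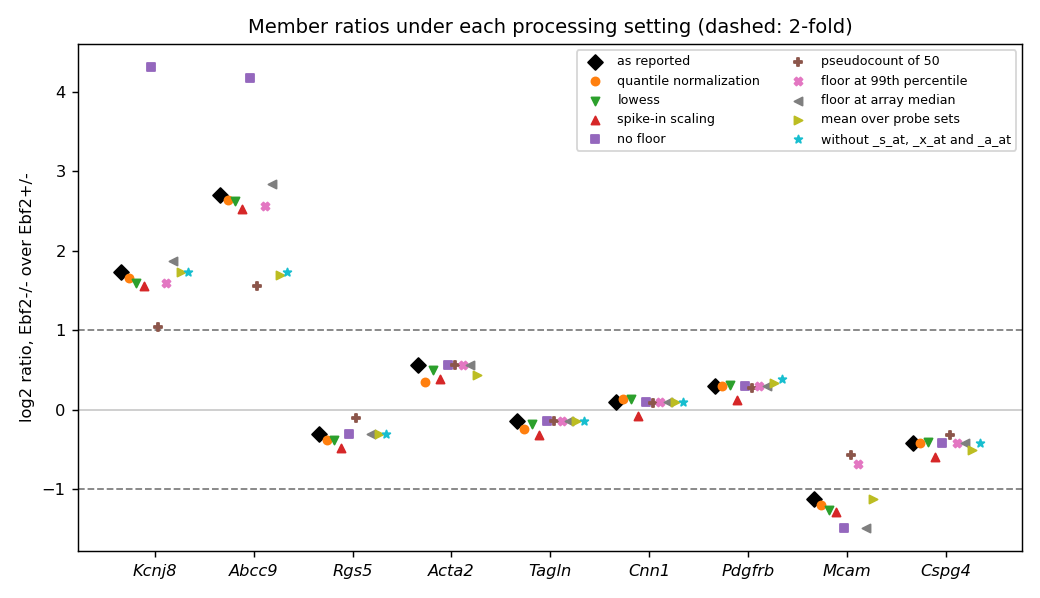
Log2 ratio of Ebf2-/- over Ebf2+/- for the 9 measured members as reported (black diamonds) and under those of the 9 processing alternatives that give a value, with dashed lines at 2-fold. Kcnj8 and Abcc9 stay above the upper line under all 9, with 4.31 and 4.17 when no floor is set, and Mcam lies inside the lines with the 99th percentile floor (-0.68) and the pseudocount of 50 (-0.57).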

How the data were processed

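Osteoblastic cells of 2 genotypes were measured with 1 expression array each, and genotype came from the label of each sample. The authors deposited 1 linear intensity per probe set, 45101 in all. Per the submitters' processing notes these are MAS5 signals (version not given in the sources used here). With 2% of the values trimmed at each end, the mean intensity was 100.001 on both arrays, so the authors' signals share one scaling target, and a shift common to most genes would not show. Detection calls were not used here.

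Symbols came from the platform annotation: 34958 probe sets had 1 symbol, 932 had several and 9211 had none listed. The gene IDs of 34754 were found in the reference table, and 0 symbols changed. A gene took the value of its brightest probe set (mean log2 signal of both arrays). The floor was each array's 95th percentile of 86 receptor probe sets. A gene was measured if above the floor on at least 1 array, and differences are described by size, with 2-fold as the mark. No fold is given where the higher signal lay under the other array's floor. With 1 array a genotype no test was possible, and the number of arrays limits the precision. All probe sets of the members are printed. From each related list the 3 measured genes with the largest ratio are named, from each marker list 2, and others are marked as named after their values were seen. The members, lists, floor and tests were chosen with earlier results of these data known. The procedure was tested on simulated data in which only bright probe sets were changed. It was thus not tested on dim signals such as those of Kcnj8, Abcc9 and Mcam. Computation used Python 3.11.15 with pandas 2.3.3, numpy 2.4.6 and statsmodels 0.14.6. The alternatives were quantile, lowess and spike-in scaling, no floor, 2 other floors, a pseudocount of 50, the mean over measured probe sets, and leaving out probe sets ending in _s_at, _x_at or _a_at.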

Additional observations from a re-analysis of the deposited data

How the results depend on the processing

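Under 9 alternatives the count of members at least 2-fold higher stayed at 2, and that of their probe sets, 3 as reported, ranged from 2 to 4 in the 8 alternatives that apply. The count of members at least 2-fold lower, 1 as reported (Mcam), was 0 with a pseudocount of 50, with the 99th percentile floor and without probe sets ending in _s_at, _x_at or _a_at, and so was the count of probe sets. The last leaves Mcam with no probe set. The 99th percentile floor sets the Ebf2-/- value of Mcam to 32.3, and a pseudocount shrinks the ratio of dim signals by construction. The members' median log2 ratio of 0.10 became -0.076 with spike-in scaling, which lowers ratios by construction. Of 78 single-member values 71 moved by less than the SD of 0.44 between probe sets and 7 moved by more. These were Abcc9 at 4.17 without a floor, 1.56 with the pseudocount, 1.69 as a mean over probe sets and 1.73 without the suffixed probe sets, Kcnj8 at 4.31 without a floor and 1.04 with the pseudocount, and Mcam at -0.57 with the pseudocount. The alternatives for the related lists were chosen after seeing the data. With spike-in scaling the medians of the channel list (-0.066), the serum response factor list (-0.057) and the growth factor list (-0.068) changed sign, and without the suffixed probe sets that of the endothelial list was 0.44, against -0.51 as reported. Of 500 values of 57 list genes 458 moved by less than that SD and 0 genes past 2-fold changed sign. Over all genes, 280 passed 2-fold upward and 134 downward with the pseudocount, and 997 upward and 932 downward without a floor, against 742 and 408 as reported. No paired analysis was possible because each genotype has 1 array. Signals near the floors limit Kcnj8, Abcc9, Mcam, Rgs5 and Myh11.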
